A study of Mus musculus with 26 samples.

Results

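RNA was compared between mouse 1-cell embryos cultured with alpha-amanitin and the unfertilised MII oocytes that such embryos come from, which shows how maternal RNA changes after fertilisation when RNA polymerase II is blocked. The comparison takes the 4 libraries titled as alpha-amanitin embryos and the 4 titled as MII oocytes, 8 of the 26 libraries of the series, and uses all genes. The blocked embryos were made by in vitro fertilisation between B6D2F1 parents (F2 embryos, labelled age 10 h) and were put in culture medium with alpha-amanitin at 100 µg/ml, beginning 1 h after sperm and eggs were mixed and lasting 10 h. The oocytes were untreated B6D2F1 eggs labelled 0 h, and the protocols describe superovulated females 8 weeks old as the egg donors. Untreated embryos of the same kind (labelled 10 h, 4 libraries, called control embryos here) were set beside them. Cells were lysed directly and amplified with a kit for total RNA at very low input. The labels do not say outright how many oocytes or embryos went into a library, and they name no donors, so a p-value reflects library-to-library spread, which may be technical. The labels' age of 10 h and the protocol's 1 h plus 10 h differ, and both embryo groups carry the same label.

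The MII oocyte is halted at the metaphase of its second meiotic division and carries RNA stored during growth. Sperm entry raises calcium, which ends the arrest through the anaphase-promoting complex, and the embryo then forms pronuclei. Stored RNA is translated or removed by deadenylation, decapping and exonucleases, and only a low, early burst of embryonic transcription falls in the 1-cell stage. Alpha-amanitin, a mushroom toxin, stalls RNA polymerase II, while the mitochondrial polymerase is insensitive to it. Oocytes were not treated, so fertilisation, time, culture and the toxin differ together between these groups and cannot be told apart from these libraries alone.

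The oocyte libraries held 18588226 to 26022296 counts and the blocked embryo libraries 5371602 to 31540627. Spearman correlations between libraries of a group ran from 0.915 to 0.957 in oocytes and from 0.741 to 0.928 in blocked embryos. Blocked libraries 1 and 3 stood apart. Genes without a count in any oocyte summed to 12200 and 11651 CPM (counts scaled to a common library total) in them, against 1390 and 975 in blocked libraries 2 and 4 and 1156 to 5033 in the control embryos. Of 7447 such genes with a count in a blocked library, 6445 had it in 1 library and 8 in all 4. Counts of genes are therefore given with and without libraries 1 and 3. Oocyte markers were present in both groups, with Bmp15, Ooep, Dppa3 and Npm2 at 468 to 2225 CPM by group mean. The other markers of that set had lower means in blocked embryos than in oocytes. Gdf9 was at 2122 CPM in oocytes and 518 in blocked embryos, Zp1 at 239 and 29.4, Zp2 at 334 and 117, and Zp3 at 155 and 47.6. Markers of cumulus and granulosa cells, which surround the egg, summed to 165 to 276 CPM in oocytes and 188 to 233 in blocked embryos. A large part of this was Nr5a2 alone, at 111 to 139 CPM in oocytes and 64.0 to 156 in blocked embryos. Of that list 10 of 28 genes were measured well enough to test, and none was called in either direction. Of 27 with a count in the 12 libraries, 7 had none in the blocked libraries. The defining genes Fshr, Foxl2 and Inha were among them, but reached only 1.65, 0.530 and 1.83 CPM in an oocyte library. Vim was at 0, 0, 11.5 and 12.6 CPM in the 4 oocyte libraries and 4.57, 0, 2.05 and 0 in the blocked ones. Tnfaip6 was at 0, 0, 8.72 and 7.10 CPM in oocytes and had no count in blocked embryos. Ptgs2 was at 0.163, 1.04, 4.38 and 9.41 CPM in oocytes and at most 2.61 in blocked embryos. Blocked library 3 held Lum at 27.9, Timp1 at 7.45 and Inhba at 6.70 CPM, against at most 0, 0.538 and 4.30 in an oocyte library. Vcan was at 10.4 and 9.12 CPM in blocked libraries 1 and 3 and 0 in the others, and reached 44.2 and 16.8 in oocyte libraries 3 and 4. Col4a2 was at 18.8 to 39.8 CPM in blocked embryos and 11.0 to 27.3 in oocytes. Cyp19a1 was at 10.4 to 13.8 CPM in oocytes and 5.20 to 18.1 in blocked embryos, and Lhcgr had counts in blocked library 1 alone (4.44 CPM). Sperm markers summed to 197 to 282 CPM in oocytes and 163 to 391 in blocked embryos. Most of this was Odf2 alone, at 176 to 275 CPM in oocytes and 159 to 379 in blocked embryos. Prm2 was at 4.29 to 15.9 CPM in oocytes and 0 to 23.3 in blocked embryos, and Prm1 had no count in either group. The part of the cumulus, granulosa and sperm markers in the results was not tested.

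In the blocked embryos a small set of abundant maternal mRNAs was strongly reduced and a smaller set was modestly raised. Most transcripts were not called, which does not show that they were unchanged. The main fit held the 12 libraries of the alpha-amanitin experiment, so control embryos also entered its estimate of spread. Of 13133 genes tested with edgeR's quasi-likelihood test, 167 (1.27%) were lower and 58 (0.442%) higher in blocked embryos than in oocytes. Calls were made at a Benjamini-Hochberg adjusted p under 0.05. The lower genes had a median log2 fold change of -1.57, and 135 of them changed at least 2-fold. The higher genes had a median of 0.83, and 15 changed at least 2-fold. At an unadjusted p under 0.05 there were 783 lower and 604 higher genes, and the median over all genes tested was -0.04. Protein-coding genes made up 165 of the lower and 55 of the higher genes. The lower genes took 7.28 ± 0.19% of the scaled counts in oocytes and 2.68 ± 0.13% in blocked embryos, and the higher genes took 2.05 ± 0.08% and 3.50 ± 0.26% (SD, n = 4 each). These shares are of genes chosen by the same test and describe its size. All levels are shares of a library's RNA, so less RNA per cell, or fewer cells, and more RNA of a gene cannot be told apart. In control embryos the shares were 2.75 ± 0.16% and 3.61 ± 0.10%.

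The groups' ranges did not overlap for 166 of the 167 lower and 56 of the 58 higher genes, and for 1510 of all genes tested (11.5%). Fitted on the 8 oocyte and blocked embryo libraries alone, 181 genes were lower and 40 higher of 12300 tested. Without blocked libraries 1 and 3 the counts were 158 lower and 44 higher. Upper-quartile scaling, in place of the TMM scaling used here, gave 135 lower and 119 higher genes, so that 46.9% of calls were higher against 25.8%. Counts also fell by over 1.5 times when some single libraries were left out. The higher genes were 21, 26, 26 and 20 without oocyte libraries 1, 2, 3 and 4, and 36 without blocked library 1. The lower genes were 106, 107 and 102 without oocyte libraries 1, 3 and 4.

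**Figure D1:**
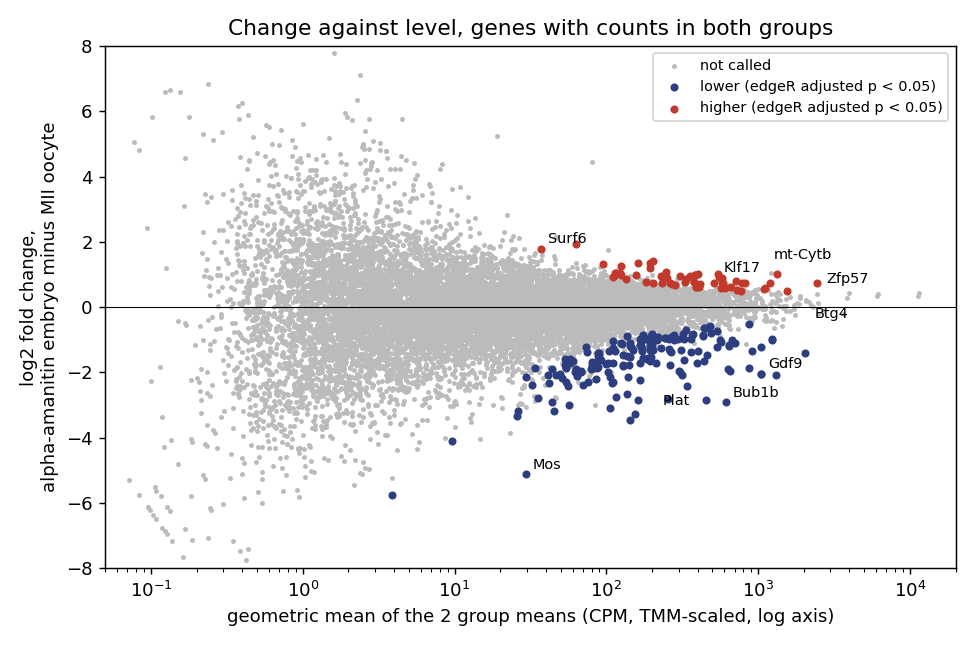
Log2 fold change between alpha-amanitin embryos and MII oocytes (vertical axis) against the geometric mean of the 2 group means in CPM (log axis), 1 point per gene with counts in both groups. Of all genes tested, 167 were called lower (blue) and 58 higher (red), and the called genes lie mostly toward the right.

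Among the largest falls was that of Mos, the kinase that keeps the egg in metaphase through the MAP kinase pathway (chromosome 4, 3870657 to 3872105, GRCm38). Mos was at 147, 191, 155 and 216 CPM in the 4 oocyte libraries and at 16.1, 3.43, 0 and 0 in the blocked embryos. Every blocked library lay far below every oocyte library, and the change came to -5.13 in log2 units (SE 1.11, adjusted p = 0.0177 by edgeR). The call was lost without oocyte library 4 or blocked library 2, and the adjusted p reached 0.0587 at most over 24 other settings. Control embryos held Mos at 12.9 ± 11.4 CPM.

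Of 41 measured genes that hold the arrest or end it, 4 fell and none rose, against 1.27% of all genes tested that fell. Among the 1476 protein-coding genes with the highest oocyte CPM the share that fell was 8.20%, and the counts of the lists are to be read against both shares. Beside Mos these were Mapk3, a MAP kinase acting downstream of it (181 ± 30.0 to 71.5 ± 32.3 CPM, log2 fold change -1.33), Mastl, the Greatwall kinase that protects mitotic phosphorylation (338 ± 28.8 to 176 ± 42.7, -0.95), and Cdc27, a subunit of the anaphase-promoting complex (451 ± 31.7 to 231 ± 81.7, -0.97). Mastl lost its call without oocyte library 3 or 4 and Cdc27 without oocyte library 1 or 4 or blocked library 1 or 4, with adjusted p of at most 0.0633 and 0.0575. The list's median was -0.02, near the -0.04 of all genes, and it was 0.07 with upper-quartile scaling. Ccnb1, cyclin B1, whose protein is destroyed when the arrest ends, was at 423 ± 62.8 CPM in oocytes and 489 ± 44.9 in blocked embryos and was not called (log2 fold change 0.21, adjusted p = 0.838). Wee2, the kinase that inhibits CDK1 in oocytes, had a log2 fold change of 0.16 and Fbxo43, the inhibitor of the anaphase-promoting complex, one of -0.18, and neither was called.

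Among 43 measured genes of the spindle checkpoint, separase and cohesin, 3 fell (1.27% of all genes) and none rose, with a list median of -0.05 (0.05 with upper-quartile scaling). Bub1b, a spindle checkpoint kinase (chromosome 2, 118598211 to 118641591), stood at 1382, 1928, 1412 and 1987 CPM in oocytes. The blocked embryos had 210, 173, 342 and 169 CPM, and the highest of these was far below the lowest oocyte value. The log2 fold change was -2.91 (SE 0.24, edgeR adjusted p = 5.76e-07). Smc3, a core cohesin subunit, fell from 434 ± 20.7 to 60.3 ± 44.8 CPM (log2 fold change -2.86), with 126 CPM in blocked library 3 and 28.0 to 51.5 in the others. Knl1, a kinetochore scaffold, fell by 1.05 on the log2 scale at an adjusted p of 0.0472, and this call was lost in 17 of 24 other settings, among them without any single oocyte or control library (adjusted p up to 0.240). Espl1, separase, was at 206 ± 29.1 and 93.3 ± 51.5 CPM and was not called (adjusted p = 0.193).

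Among oocyte-made growth factors and egg coat and surface genes, 4 of 15 measured members fell (1.27% of all genes) and none rose, at a median of -0.75. Gdf9, a growth factor that acts on the surrounding cumulus cells (chromosome 11, 53431023 to 53437904), was at 2211, 1957, 2315 and 2005 CPM in oocytes and at 657, 506, 409 and 499 in blocked embryos. The groups were well separated, with a log2 fold change of -2.03 (SE 0.19, adjusted p = 2.2e-06). Bmp15, its close relative and partner (chromosome X, 6314107 to 6320721), was at 2040, 1548, 2259 and 1826 CPM in oocytes and 2584, 2260, 1824 and 2233 in blocked embryos, and these ranges overlapped (log2 fold change 0.21, adjusted p = 0.704). The ratio of Gdf9 to Bmp15 within a library, which does not depend on scaling, was 1.02 to 1.26 in oocytes, 0.224 to 0.254 in blocked embryos and 0.133 to 0.222 in control embryos. This pair and those below were chosen after their values were seen, so the ratios are given with no test.

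The egg coat genes Zp2 and Zp3, whose proteins help form the zona pellucida, fell. Zp2 was at 329, 316, 363 and 329 CPM in oocytes and 99.2, 135, 131 and 101 in blocked embryos (log2 fold change -1.52), and Zp3 went from 155 ± 15.8 to 47.6 ± 11.5 CPM (-1.71). Zp1, which links the coat's filaments, was at 215 to 268 CPM in oocytes and 0 to 54.7 in blocked embryos, yet missed the threshold (log2 fold change -3.01, adjusted p = 0.0589). Astl, the protease that cleaves ZP2 after fertilisation, fell from 182 ± 14.7 to 39.8 ± 22.1 CPM (-2.19). Plat, the tissue plasminogen activator (chromosome 8, 22757727 to 22782844), belongs to mRNAs stored during growth and translated in meiotic maturation. It was at 1000, 1294, 1083 and 1478 CPM in oocytes and at 172, 158, 188 and 161 in blocked embryos. The blocked values were tight and far below the oocytes, with a log2 fold change of -2.84 (SE 0.20, adjusted p = 1.06e-07). In that list 4 of 24 measured genes fell (1.27% of all genes) and none rose, at a median of 0.02, which ran from -0.06 to 0.12 over the other settings. Besides Plat they were Mos, Bub1b and the decapping factor gene Dcp1a.

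**Figure D2:**
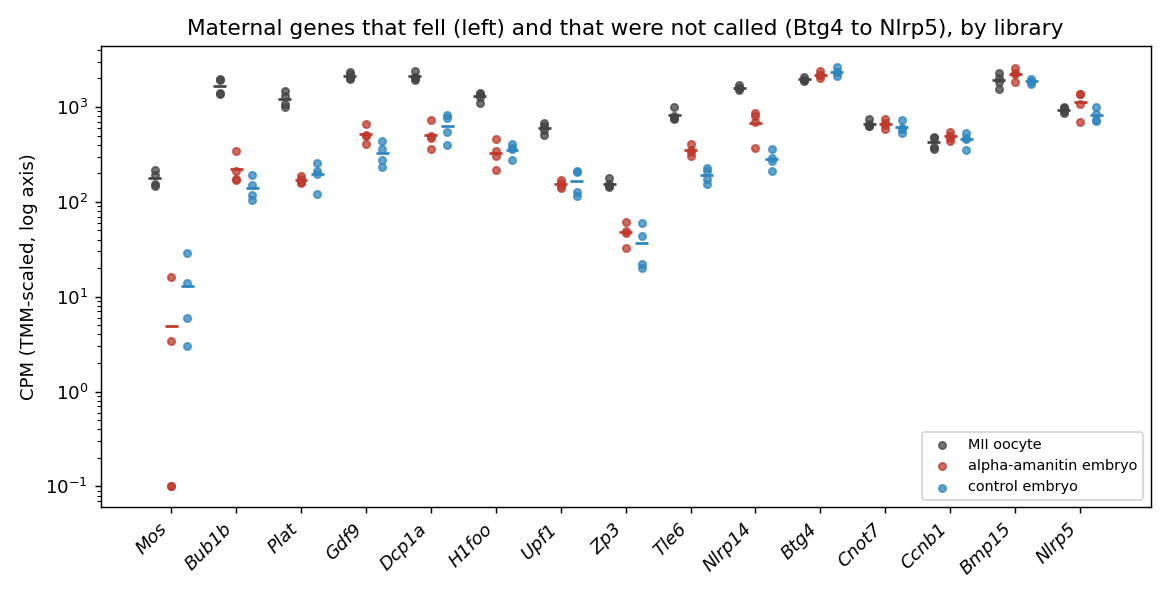
CPM per library (log axis) for 10 maternal genes that fell and 5 that were not called, in MII oocytes, alpha-amanitin embryos and control embryos (4 points each, short lines are means; values of 0 are drawn at 0.1). From Mos to Nlrp14 the blocked embryos lie below the oocytes, while Btg4, Cnot7, Ccnb1, Bmp15 and Nlrp5 overlap between oocytes and blocked embryos.

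Some genes of RNA decay fell while others were not called. Dcp1a, a coactivator of the decapping enzyme (chromosome 14, 30479535 to 30527063), was at 1945, 2042, 2395 and 2084 CPM in oocytes and 363, 465, 721 and 492 in blocked embryos. It fell by 2.05 on the log2 scale (SE 0.22, adjusted p = 1.29e-05). Dcp2, the catalytic decapping enzyme, was at 440 ± 85.8 and 553 ± 152 CPM and was not called (adjusted p = 0.621). The ratio of Dcp1a to Dcp2 was 4.87 ± 0.45 in oocytes, 0.924 ± 0.108 in blocked embryos and 1.29 ± 0.51 in control embryos.

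Of 42 measured decapping and decay genes 3 fell (1.27% of all genes, 8.20% of the 1476 at the highest oocyte CPM) and none rose. The median was -0.13 and ran from -0.30 to -0.02 over the other settings. Upf1, the helicase of nonsense-mediated decay (chromosome 8, 70331525 to 70353278), fell from 597 ± 68.9 to 154 ± 11.8 CPM (log2 fold change -1.96, adjusted p = 8.84e-06). Dis3l, an exosome nuclease, fell from 303 ± 39.5 to 152 ± 26.7 CPM (adjusted p = 0.0131), a call lost without oocyte library 4 and without blocked libraries 1 and 3 (adjusted p up to 0.0803). Smg8, which acts with the UPF1 kinase SMG1 and was chosen after its values were seen, fell by 2.16 on the log2 scale.

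Of 26 measured deadenylation genes (1.27% of all genes fell) only Cnot1, the scaffold of the CCR4-NOT complex, passed. It fell from 493 ± 40.9 to 278 ± 12.4 CPM (log2 fold change -0.83, adjusted p = 0.0114), but not without blocked libraries 1 and 3 (0.0627). Btg4, the adaptor that brings CCR4-NOT to maternal mRNA, was at 1894, 1914, 2095 and 1902 CPM in oocytes and at 2384, 2179, 2195 and 2034 in blocked embryos. These ranges overlapped (log2 fold change 0.17, adjusted p = 0.729). The deadenylases Cnot7 (668 ± 59.6 and 663 ± 70.9 CPM) and Cnot6l (911 ± 71.9 and 970 ± 118 CPM) were also not called, with log2 fold changes of -0.01 (SE 0.14) and 0.09 (SE 0.14). The ratio of Plat to Btg4 was 0.517 to 0.777 in oocytes and 0.0721 to 0.0856 in blocked embryos.

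RNA-binding proteins that mask or polyadenylate stored mRNA moved both ways, with 4 of 35 measured members lower (1.27% of all genes) and 2 higher (0.442%). Zar1, a maternal-effect RNA-binding protein, fell from 711 ± 80.2 to 218 ± 60.3 CPM (log2 fold change -1.71), Lsm14b from 1444 ± 82.9 to 569 ± 124 CPM (-1.34), and Papola, a poly(A) polymerase, from 230 ± 16.8 to 80.9 ± 18.9 CPM (-1.50). Igf2bp2, which binds and stabilises mRNA, was the other (-1.09). The Y-box proteins Ybx1 and Ybx3 rose, from 426 ± 117 to 791 ± 134 CPM (0.89) and from 455 ± 39.4 to 762 ± 103 CPM (0.75). Ybx2, the germ cell Y-box protein that packages stored mRNA, was at 393 ± 33.3 and 388 ± 61.7 CPM and was not called. The ratio of Zar1 to Ybx2 was 1.56 to 2.16 in oocytes and 0.457 to 0.663 in blocked embryos. Cpeb1, the protein that binds the cytoplasmic polyadenylation element, was at 245 ± 43.1 and 137 ± 35.7 CPM with an adjusted p of 0.0958.

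The subcortical maternal complex, a protein assembly under the egg membrane needed for the first cleavages, and the oocyte Nlrp genes had 4 of 17 measured members lower (1.27% of all genes, 8.20% of the 1476 at the highest oocyte CPM) and none higher, at a median of 0.00 (-0.24 without blocked libraries 1 and 3). Tle6, a member of the complex, was at 760, 800, 740 and 989 CPM in oocytes and 403, 335, 307 and 349 in blocked embryos (log2 fold change -1.24, SE 0.16, adjusted p = 0.000132). The groups did not overlap. Its partner Ooep had 468 ± 52.6 and 551 ± 70.9 CPM and was not called, and the ratio of Tle6 to Ooep was 1.58 to 1.86 in oocytes and 0.561 to 0.712 in blocked embryos. Nlrp14 fell from 1593 ± 92.9 to 684 ± 221 CPM (-1.22, adjusted p = 0.00229), with 370 CPM in blocked library 3 and 696 to 862 in the others. Nlrp5, also called Mater, was at 934 ± 64.1 and 1129 ± 319 CPM and was not called (adjusted p = 0.746), so that the ratio of Nlrp14 to Nlrp5 was 1.55 to 1.84 in oocytes and 0.530 to 0.645 in blocked embryos. Padi6, needed for the egg's cytoplasmic lattices, fell by 0.99 at an adjusted p of 0.048. This is just under the threshold, and the call was not followed over the other settings. Nlrp4b fell by 0.96, a call lost in 11 of 24 other settings, among them without any single oocyte library (adjusted p up to 0.157).

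Among 45 further measured maternal-effect and oocyte genes 4 fell (1.27% of all genes) and none rose, Zar1 being one of them. H1foo, the oocyte linker histone, was at 1289, 1413, 1093 and 1369 CPM in oocytes and 305, 342, 455 and 217 in blocked embryos, a log2 fold change of -1.97 (SE 0.19, adjusted p = 4.93e-06). All 4 blocked values lay below the lowest oocyte value. Sall4, a transcription factor of early development, fell from 582 ± 34.6 to 321 ± 40.5 CPM (-0.86), and Gtsf1, a factor of the piRNA pathway, from 148 ± 8.98 to 53.6 ± 11.4 CPM (-1.46). The list's median was -0.09, and 0.01 with upper-quartile scaling.

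The largest falls held genes of varied roles. Rtn4r, the Nogo receptor, fell from 29.2 ± 13.3 to 0.516 ± 0.780 CPM (log2 fold change -5.74, adjusted p = 0.0174), but the call was lost without oocyte library 1 or 3, without blocked library 1 and without blocked libraries 1 and 3 (adjusted p up to 0.0914). March7, a membrane-bound ubiquitin ligase, fell from 480 ± 141 to 49.8 ± 41.9 CPM (-3.29), Arrdc2, an arrestin-domain protein, from 135 ± 16.3 to 15.0 ± 6.48 (-3.17), and Ccnyl1, a cyclin-Y-like protein, from 160 ± 17.0 to 20.0 ± 9.47 (adjusted p = 4.3e-05). Lbr, the lamin B receptor, Etnk1, an ethanolamine kinase, Dse, an epimerase of dermatan sulfate, Gmcl1 and the magnesium transporter gene Slc41a2 were also among them, at -3.10, -3.17, -2.92, -3.33 and -4.10. Gmcl1 lost the call in 10 of 24 other settings and Slc41a2 in 10 of 23, among them without any single oocyte library (adjusted p up to 0.133 and 0.157). Etnk1 lost it without any single oocyte library or blocked library 2 or 4 (up to 0.0824). Lbr lost it without oocyte library 1, 2 or 4 or blocked library 1, and with all control libraries left out of the fit (up to 0.0798). Dse lost it without blocked libraries 1 and 3 (0.0618).

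Further lower genes, outside the lists, were picked after their p-values were seen. Alg10b, which adds the last glucose to the lipid-linked glycan, was at 623, 530, 873 and 672 CPM in oocytes and 81.0, 101, 94.2 and 104 in blocked embryos (log2 fold change -2.83, SE 0.20, adjusted p = 1.06e-07). Ern1, the IRE1 sensor of unfolded protein, fell from 2705 ± 110 to 636 ± 67.2 CPM (-2.09). Jag1, a Notch ligand, fell from 1231 ± 88.1 to 328 ± 31.3 CPM (-1.91), and Lamb1, a laminin chain, from 1660 ± 212 to 457 ± 40.3 CPM (-1.86). Fat1, a giant cadherin, fell by 2.42 on the log2 scale and Slc23a2, a vitamin C transporter, by 1.97. Rdx, radixin, which ties actin to the membrane, fell from 3308 ± 269 to 1253 ± 677 CPM, with 2248 CPM in blocked library 3 and 745 to 1071 in the others (-1.40).

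The genes that rose changed by less. Zfp57, a zinc finger protein that keeps imprints through early development (chromosome 17, 37001163 to 37010635), was at 1783, 1973, 1717 and 2100 CPM in oocytes and 3202, 3005, 3015 and 3412 in blocked embryos. No oocyte library reached the lowest blocked value, and the log2 fold change was 0.74 (SE 0.11, adjusted p = 0.000917). Klf17, a Krüppel-like factor, was at 537, 605, 685 and 599 CPM in oocytes and 1080, 1044, 1021 and 899 in blocked embryos (0.74, SE 0.14, adjusted p = 0.00493). It was the 1 gene of 23 measured in the genome activation list to rise. Hist1h1a, a linker histone of somatic type and the 1 riser of 31 measured replication-dependent histones, rose from 381 ± 26.5 to 767 ± 126 CPM (1.01, adjusted p = 0.000359), in the direction opposite to H1foo. Nasp, a chaperone of histones, rose from 544 ± 24.0 to 948 ± 222 CPM (0.80), and it and H1foo were the called members of 25 histone variant and chaperone genes. Dnmt3a, a de novo DNA methyltransferase, rose from 220 ± 39.6 to 428 ± 86.4 CPM (0.96), a call lost without oocyte library 2, 3 or 4 and without blocked libraries 1 and 3 (adjusted p up to 0.0844). With Zfp57 it made up the 2 risers of 53 measured genes of DNA methylation and histone modification, of which none fell. Of all genes tested 0.442% rose, and of the 1476 protein-coding genes at the highest oocyte CPM 2.44%. The risers of these lists are to be read against both shares.

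Of the genes named by the rule on size the first was Surf6, a nucleolar protein of ribosome assembly, from 19.9 ± 5.41 to 69.1 ± 15.6 CPM (log2 fold change 1.79, adjusted p = 0.0359), a call lost in 12 of 24 other settings, among them without any single oocyte library (adjusted p up to 0.165). Zmat2, a spliceosome protein, rose from 124 ± 11.5 to 333 ± 105 CPM (1.43), and Fam133b from 120 ± 15.8 to 309 ± 64.2 (1.36). Taok3, a kinase upstream of p38, rose from 101 ± 25.3 to 260 ± 85.5 CPM (1.36), with 387 CPM in blocked library 3 and 206 to 223 in the others. St13, a cofactor of HSP70 (1.08), and Sars, a seryl-tRNA synthetase (1.06), rose as well, Sars not without oocyte library 3 (adjusted p = 0.0580). Noc3l (1.33), Bfsp1 (1.21), E2f2 (1.05) and Akap17b (1.01) rose in the full set of libraries and lost the call in 11, 7, 9 and 6 of 24 other settings, in each case without oocyte library 3 or 4 (adjusted p up to 0.150, 0.140, 0.181 and 0.110). The highest fitted change among called genes, that of the collagen gene Col1a2, came from 5.32, 1.51, 113 and 0 CPM in the blocked libraries against no count in any oocyte, so the rule on overlapping ranges left it out.

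**Figure D3:**
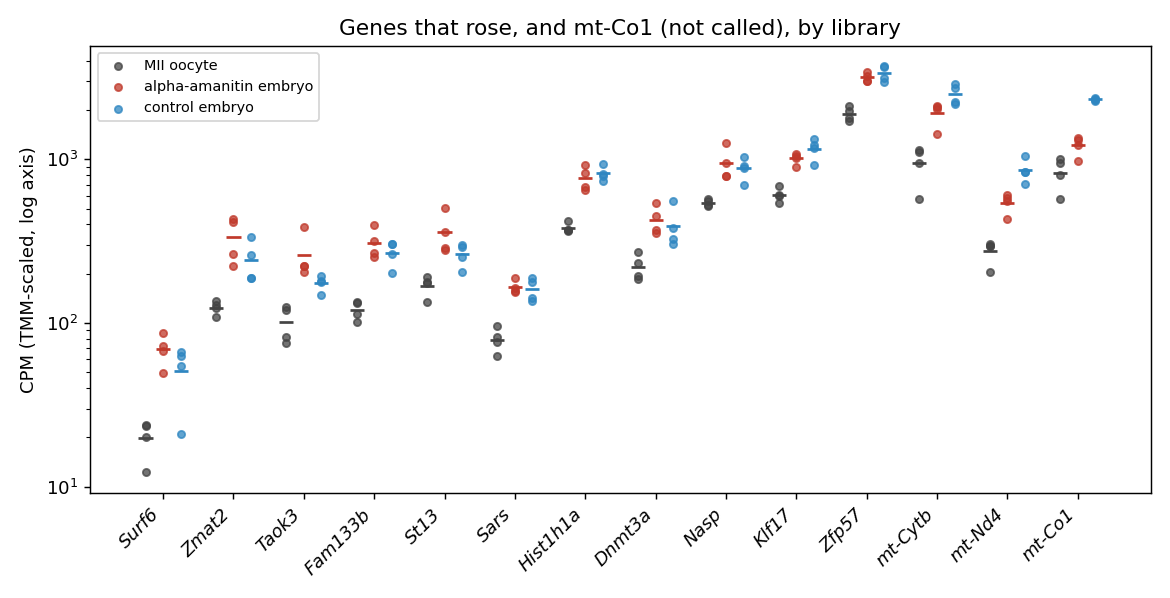
CPM per library (log axis) for 13 genes that rose and for mt-Co1, which was not called, in MII oocytes, alpha-amanitin embryos and control embryos (4 points each, short lines are means). For Zfp57 the 4 blocked embryos sit between 3005 and 3412 CPM and the oocytes between 1717 and 2100.

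Mitochondrial DNA is copied into RNA by the mitochondrial polymerase. The 8 measured mitochondrially encoded mRNAs had a median log2 fold change of 0.61, 7 of them above 0, and 2 rose. Over all genes tested 6303 of 13133 were above 0 and 0.442% rose. mt-Cytb, cytochrome b, was at 1112, 951, 569 and 1143 CPM in oocytes and 2070, 1416, 2031 and 2119 in blocked embryos, with no overlap (1.02, SE 0.19, adjusted p = 0.00479). mt-Nd4, a subunit of complex I, rose from 275 ± 47.5 to 542 ± 75.5 CPM (0.98). mt-Co1, the catalytic subunit of cytochrome oxidase, was at 829 ± 189 and 1214 ± 167 CPM and was not called (0.55, adjusted p = 0.0833), and mt-Nd5 was at 841 ± 310 and 1738 ± 784 CPM (1.05, adjusted p = 0.119).

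All mitochondrial mRNAs together took 0.290% to 0.505% of counts in oocytes and 0.573% to 0.888% in blocked embryos. The means were 0.443 ± 0.102% and 0.763 ± 0.148% (SD, n = 4 each, two-sided exact permutation p = 0.0286, the smallest this design can give). Adjusted over the 12 shares and sums compared, that p was 0.0571. The share was 1.10 ± 0.16% in control embryos, and 0.121% to 0.642% in the 7 control embryo libraries of the other experiment of the series. Without blocked libraries 1 and 3 the difference between the means was 0.280 percentage points against 0.320. The mitochondrial rRNAs took 1.52 ± 0.30% and 2.06 ± 0.16% (exact permutation p = 0.0286, adjusted 0.0571). Nuclear protein-coding genes took 94.8 ± 0.59% in oocytes and 92.9 ± 0.55% in blocked embryos (the same p-values).

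Other RNA classes were compared in the same way. LincRNA genes took 1.09 ± 0.04% and 1.34 ± 0.06% of counts, antisense genes 0.224 ± 0.006% and 0.281 ± 0.057%, and processed pseudogenes 0.220 ± 0.008% and 0.349 ± 0.126% (exact permutation p = 0.0286 and adjusted 0.0571 for each). None of the 12 values passed after adjustment. Without blocked libraries 1 and 3 the pseudogene difference of 0.129 percentage points was 0.0217 and the antisense difference of 0.0563 was 0.0164.

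The nuclear genes of oxidative phosphorylation lay on the other side of 0. None of 76 measured subunits was called, 67 had a log2 fold change below 0 and the median was -0.99 (-1.76 with limma voom, -0.82 without blocked library 3). Over all genes tested 6830 of 13133 were below 0. The summed level below is that of these 76 subunits. Their summed level was 2382 to 2713 CPM in oocytes and 1977, 1725, 969 and 1703 in blocked embryos, with no overlap. The smallest adjusted p was 0.108, for Cox7c, which had 1.51 to 16.5 CPM in oocytes and no count in the blocked embryos. Cytosolic ribosomal protein genes were described in the same way. Of 77 measured members 65 were below 0, the median was -0.71 (-1.38 with limma voom, -1.23 with the replicate number as a block, -0.48 without oocyte library 4) and none was called, with Rplp0 at 92.0 ± 20.3 and 34.5 ± 17.6 CPM (adjusted p = 0.145). Their sum was 2132 to 2789 CPM in oocytes and 1275 to 1936 in blocked embryos, with 1224 to 1509 in control embryos. Blocked library 3 was the lowest in both sums. These medians are over genes of which none passed the test.

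Other lists held few calls, to be read against the 1.27% of all genes that fell and the 0.442% that rose. Among 58 measured genes of RNA polymerase II and its cofactors, Polr2d, a polymerase subunit, fell from 215 ± 21.7 to 77.0 ± 16.5 CPM (log2 fold change -1.48). Of 54 spliceosome genes Prpf8, the core of the active site, fell from 583 ± 22.2 to 223 ± 45.6 CPM (-1.39), and Ddx46, a spliceosome helicase, rose by 0.67, a call lost in 14 of 24 other settings and without any single oocyte or blocked library (adjusted p up to 0.195). The chaperones Hspa8 (-1.36) and Cct5 (-1.56) fell of 39 measured, and Atg16l1 (-2.40) and Lamp1 (-0.89), of autophagy and the lysosome, of 35. Atg16l1 went from 162 ± 22.1 to 30.8 ± 10.5 CPM, and Lamp1 lost its call in 11 of 24 other settings, among them without any single oocyte library (adjusted p up to 0.157). No gene was called among 28 of egg activation by calcium, 49 translation factors, 36 proteasome subunits, 57 replication genes, 38 tubulins and kinesins, 38 glycolysis genes or 26 nuclear genes of mitochondrial RNA. Their medians lay between -0.35 and 0.02 (between -0.61 and 0.13 over the other settings), and that of the last list, -0.21, was 0.12 without oocyte library 1. None was called among 13 RNAs of RNA polymerase III and small nuclear RNAs, 3 sperm markers, 10 cumulus markers and 15 immediate-early genes either. The medians of these 4 lists were not stable. Over the other settings the Pol III median of 0.26 ran from -0.03 to 0.72 and the sperm median of 0.23 from -0.26 to 1.01. The cumulus median of -1.13 ran from -1.70 to -0.08 (-0.15 without oocyte library 1 or 4) and the immediate-early median of -0.80 from -1.54 to 0.26. Itpr1, the calcium channel that releases calcium at fertilisation, was at 364 ± 55.5 and 261 ± 57.7 CPM (adjusted p = 0.265).

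**Figure D4:**
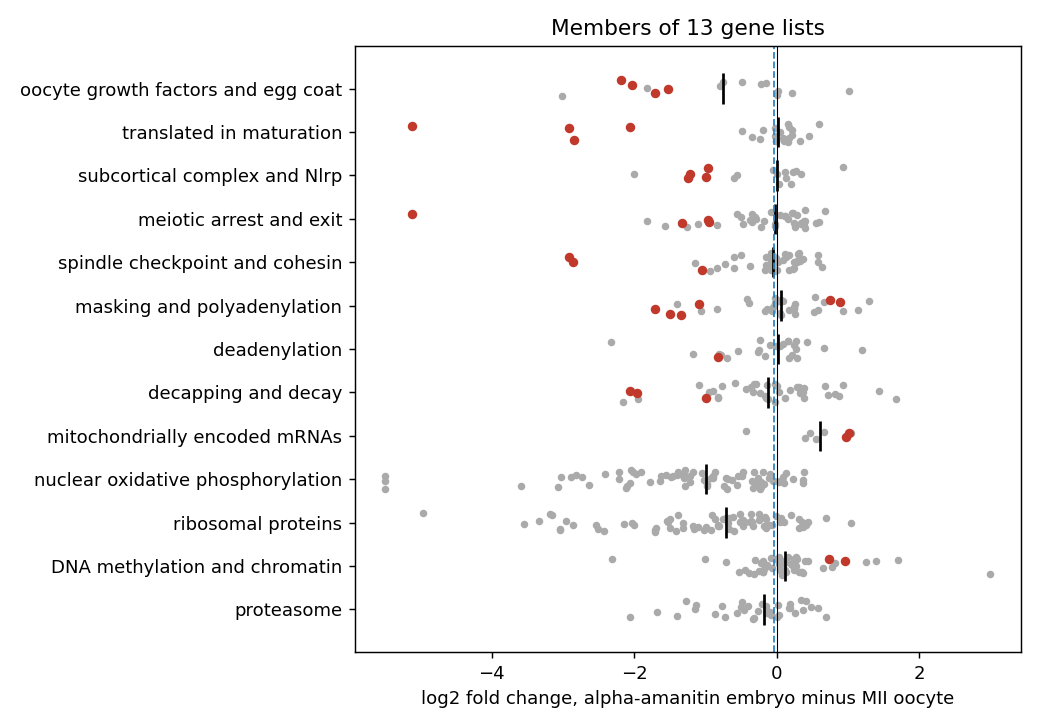
Log2 fold change between alpha-amanitin embryos and MII oocytes for the measured members of 13 gene lists (1 point per gene, red where called, black bars are list medians, the dashed line is the median of all genes; values under -5.5 or over 3 are drawn at those limits). The medians run from -0.99 in nuclear oxidative phosphorylation to 0.61 in mitochondrially encoded mRNAs.

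Levels of genes known for the minor genome activation varied between blocked libraries. Duxf3, a copy of the homeobox activator Dux, had no count in the 4 oocytes, 2.47, 0.819, 0 and 0 CPM in the blocked libraries and 3.43, 3.92, 0 and 0 in the control libraries. Zfp352, a zinc finger gene of the early embryo, had no count in oocytes, 0.951, 2.40, 0 and 0 CPM in blocked embryos and 11.9, 30.5, 1.19 and 0 in control embryos. Zscan4d was at 0 to 2.53 CPM in oocytes and 0.745 to 9.90 in blocked embryos. None of these was called against oocytes (adjusted p = 0.337, 0.273 and 0.937). A total of 3 counts corresponds to 0.0951 to 0.558 CPM in a blocked library, and a library at 0 allows a level up to that limit, which covers counting error only. Tcstv1 of the same list, picked after its values were seen, was at 11.9 to 19.4 CPM in oocytes and 34.1, 12.3, 0 and 8.04 in blocked embryos. The genes of the activation list, which includes genes with oocyte RNA such as Obox5, summed to 3883 ± 143 and 4367 ± 327 CPM (exact permutation p = 0.0571, adjusted 0.0857).

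Control embryos give the same interval without the block. Against oocytes they had 234 lower (1.78%) and 146 higher genes (1.11%) in the same fit. These share the oocyte libraries with the blocked comparison, so the values stand side by side and no overlap is given. Plat was at 196 ± 55.4 CPM in control embryos and 170 ± 13.5 in blocked embryos, Gdf9 at 328 ± 92.8 and 518 ± 103, Bub1b at 141 ± 39.4 and 223 ± 81.2, and H1foo at 353 ± 55.8 and 330 ± 98.7. None of these passed the test between the embryo groups (edgeR adjusted p from 0.524 to 0.998), which does not show that they were equal. Of the genes that rose, Zfp57 was at 3357 ± 361 and 3159 ± 191 CPM and Klf17 at 1155 ± 171 and 1011 ± 78.9, neither called.

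Blocked and control embryos were told apart at 4 genes (0.0305%), 3 higher and 1 lower in blocked embryos. At an unadjusted p under 0.05 there were 618 higher and 368 lower, and DESeq2 called 92 and 32. All 4 are named for that reason. Nlrp14 stood between the oocyte and the control embryo, at 1593 ± 92.9 CPM in oocytes, 684 ± 221 in blocked and 282 ± 61.4 in control embryos (blocked minus control 1.28 on the log2 scale, SE 0.21, adjusted p = 0.0365). Tubb6, a beta-tubulin, was at 303, 233 ± 24.4 and 104 ± 24.0 CPM in the same order (1.17, adjusted p = 0.0365). mt-Co1 was at 829 ± 189, 1214 ± 167 and 2317 ± 44.0 CPM (-0.93, adjusted p = 0.0365). Mgat4b, a glycosyltransferase, was at 25.4 CPM in oocytes, 6.72 ± 4.19 in blocked embryos and had no count in control embryos (adjusted p = 0.0420). Prpf8 and Tle6 followed the order of Nlrp14, at 109 ± 23.7 and 193 ± 34.3 CPM in control embryos, with adjusted p of 0.0635 and 0.0888. No gene was called in either direction without oocyte library 1, 2 or 4, control library 1, 3 or 4, or blocked library 1, 2 or 4.

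Called genes had many counts in oocytes. Among 7379 nuclear protein-coding genes at 10 CPM or more in oocytes with an annotated 3′ UTR, the 1476 with the highest oocyte CPM held 121 of 160 lower and 36 of 52 higher genes. Split into 5 equal groups by coding length, the share of lower genes was 0.407%, 1.76%, 2.37%, 2.78% and 3.52% from the shortest to the longest, while the median log2 fold change stayed between -0.09 and -0.06. Split by GC content, the shares ran from 1.63% to 2.71% without such an order. CPM is not divided by length, so longer genes carry more counts for the same number of molecules.

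The cytoplasmic polyadenylation element, a uridine-rich stretch near the 3′ end that CPEB1 binds to control translation in maturation, was searched for on the sense strand as TTTTAT or TTTTAAT in annotated 3′ UTRs. In the last 100 bases it was present in 31.3% of 160 lower genes, 17.3% of 52 higher genes and 21.0% of all 7379 genes. Over whole UTRs the shares were 71.9%, 69.2% and 64.5%. Split by UTR length, 2.48%, 3.93% and 3.24% of genes with the element in the last 100 bases were lower among short, middle and long UTRs (3 equal groups), against 1.87%, 2.00% and 1.78% of those without it. The polyadenylation signal AATAAA did not separate the groups, at 65.6%, 65.4% and 65.1% in the last 100 bases. The AU-rich element TATTTAT was in 8.75% of lower genes, none of the 52 higher genes and 4.72% of all genes in that window, and it can overlap a TTTTAT match. The Pumilio motif TGTANATA was in 37.5%, 30.8% and 27.9% over whole UTRs. These shares describe letters in annotated UTRs and carry no test. They were not split by oocyte CPM, although most lower genes were among those with the highest oocyte CPM.

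The element closest to the 3′ end is printed for 5 genes that fell and 3 that were not called, because it was present in both. Each line gives 30 bases of the annotated 3′ UTR, 5′ to 3′ on the transcript strand, from the GENCODE vM21 transcripts of GRCm38. Capitals mark the element and, where it falls in the window, the polyadenylation signal.
Plat: agtatatttataTTTTAATctattttagtt
Bub1b: tttcactgtgtaTTTTATAATAAAatagtt
Dcp1a: gcaaatatatttTTTTAATAAAatttcaaa
Gdf9: agagtgctgtggTTTTATgtgacggaagaa
Dse: tgattctgatgtTTTTAATtagaaaagttt
Btg4: agataaatccctTTTTATgtctttttaaaa
Cnot7: tcttaaggtacaTTTTATatcAATAAAaat
Ccnb1: tctcatttgctgTTTTAATttatacatctg
The first 5 fell (log2 fold changes of -2.84, -2.91, -2.05, -2.03 and -2.92, that of Dse not passing without blocked libraries 1 and 3) and the last 3 did not pass (0.17, -0.01 and 0.21). The windows begin at base 638 of 738 in Plat, 234 of 272 in Bub1b, 3703 of 3757 in Dcp1a, 310 of 360 in Gdf9, 756 of 823 in Dse, 443 of 521 in Btg4, 920 of 951 in Cnot7 and 873 of 1028 in Ccnb1. In Dcp1a the element and the signal share bases, and in Bub1b they adjoin. In Ccnb1 the element ends 137 bases from the 3′ end, outside the window of 100. The annotated 3′ UTRs of Mos, Zar1, Upf1 and Tle6, which also fell, hold no TTTTAT or TTTTAAT.

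**Figure D5:**
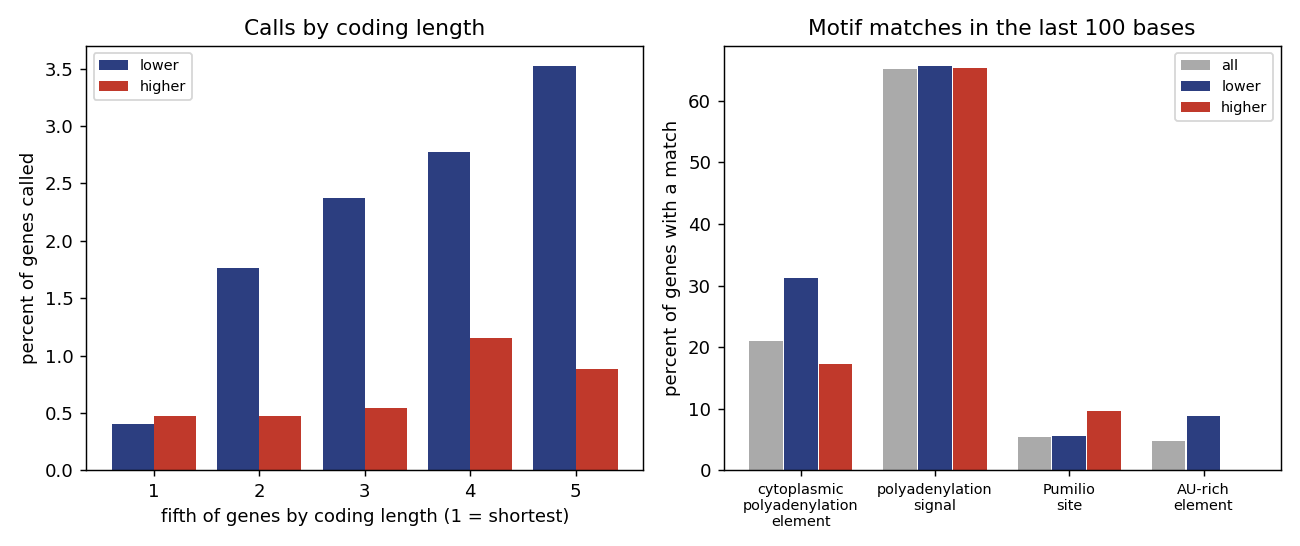
Left, percent of genes called lower or higher in 5 equal groups by coding length. Right, percent of all, lower and higher genes with each motif in the last 100 bases of the annotated 3′ UTR, where the cytoplasmic polyadenylation element was in 31.3% of lower and 17.3% of higher genes.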

How the data were processed

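The authors deposited 1 table of whole-number counts, 55401 gene identifiers by 26 libraries, with no scaling. The submitters' processing notes list cutadapt 1.7.1, STAR 2.5.0a and the GRCm38 build. No label names the counter, its strand option or the gene models (not given in the sources used here), so overlapping, antisense and multi-copy genes are uncertain. Symbols came from GENCODE vM21 (55141 identifiers matched). The other identifiers held 0.00589% of counts.

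Counts of the 12 libraries of the alpha-amanitin experiment were fitted once in R 4.3.3 with edgeR 4.0.16 (quasi-likelihood, TMM scaling, filterByExpr with minimum count 10 and total 15, Benjamini-Hochberg threshold 0.05), checked on simulated data. The contrast was alpha-amanitin embryo minus oocyte. Levels are CPM with TMM-scaled totals. Shares, and the CPM of activation genes, markers and genes without an oocyte count, use raw totals. limma 3.58.1 voom and DESeq2 1.42.0 were alternatives. The rule for named genes took the 12 largest changes per direction with at least 10 CPM and ranges apart, then 3 per list with a called member, and 24 fixed genes; others were picked after their values were seen. The groups, members and 31 gene lists were chosen with earlier results of these data known. Some results are not reported here.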

Additional observations from a re-analysis of the deposited data

Results flagged for a closer look

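In 8 of the 194 groups of 4 libraries examined, the highest or lowest library lay so far from the others that its gap exceeded Dixon's 95% critical value for 4 samples. Chance alone gives about 1 in 20 groups. In oocyte library 3 the mitochondrial mRNA share was 0.290%, against 0.486% to 0.505% in the other oocytes, and mt-Nd4 was at 204 CPM against 294 to 304. In blocked library 2 mt-Cytb was at 1416 CPM against 2031 to 2119. Taok3 was at 387 CPM in blocked library 3 against 206 to 223. Igf2bp2 was at 914 CPM in oocyte library 1 against 1065 to 1085. Btg4 was at 2095 CPM in oocyte library 3 against 1894 to 1914. Hist1h1a was at 421 CPM in oocyte library 2 against 364 to 371. Hist1h2bm was at 0.0504 CPM in blocked library 2 and had no count in the other blocked libraries, a level under 3 counts.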

How the results depend on the processing

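No gene chosen by the naming rule changed direction as a call under the alternatives run. The median log2 fold change of all genes, -0.04, was 0.06 with upper-quartile scaling and -0.23 with limma voom. The main counts of 58 higher and 167 lower genes became 119 higher with upper-quartile scaling, 186 and 286 with no filter, 219 and 311 with DESeq2, and 141 and 401 with limma voom, and 15 of the higher genes changed at least 2-fold. Of the 225 calls, 222 were kept by DESeq2, 218 by voom, 193 by upper-quartile scaling and 148 without blocked libraries 1 and 3. The fit of the 8 oocyte and blocked embryo libraries alone kept 182, and it called 40 higher and 181 lower. Leaving out single libraries gave 20 to 82 higher and 102 to 248 lower genes. Against control embryos it gave 0 to 4 higher and 0 to 2 lower genes (3 and 1 with all libraries, 92 and 32 with DESeq2). For control embryos against oocytes it gave 63 to 291 higher and 146 to 434 lower genes (284 and 485 with DESeq2). The cause was not tested.

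No pairing of the libraries by replicate number was seen. Same-numbered blocked and oocyte libraries had correlations of 0.049, 0.017, 0.014 and -0.025 in their deviations from the group means. Such values cannot show that the numbers carry no pairing. Blocked libraries 2, 3 and 4 correlated best with oocyte libraries 1, 4 and 1 (0.049, 0.040 and 0.035), and only blocked library 1 with its own number. With the replicate number as a block, 40 genes were higher and 152 lower, with 182 calls kept, and 0 and 0 against control embryos. The median log2 fold change of all genes was then -0.20, against -0.04 in the main fit. Depth limits low genes most: 3 counts are 0.558 CPM in blocked library 3.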

Other observations

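Families looked at after the called genes were seen add members of the same kind. Over all genes tested 1.27% were lower and 0.442% higher, and 6830 of 13133 had a log2 fold change below 0. Among the 1476 protein-coding genes with the highest oocyte CPM 8.20% were lower and 2.44% higher. Of 10 measured laminin chains, which build basement membranes, Lama2, Lamb1 and Lamc1 were lower and 9 of 10 had a log2 fold change below 0 (median -0.96). The catalytic subunits Stt3a and Stt3b of the oligosaccharyltransferase, which puts glycans on new proteins, were lower, and all 11 measured subunits were below 0 (median -0.65). Of 9 coatomer subunits, which coat vesicles returning to the endoplasmic reticulum, Copb1 and Arcn1 were lower (median -0.15). Of 11 glycosyltransferases that build the lipid-linked glycan only Alg10b was lower (median -0.10). Of 9 Tudor-domain germ granule genes Tdrd1, Tdrd5 and Stk31 were lower (median -0.22).

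Nucleolar ribosome assembly factors went the other way in part. Of 53 measured, Surf6, Noc3l, Riok1 and Wdr43 were higher and Utp4 lower, with a median of 0.21. Riok1, a kinase of small-subunit maturation, was at 634 ± 43.9 CPM in oocytes and 1057 ± 284 in blocked embryos, and Wdr43 at 272 ± 38.8 and 535 ± 99.3. These families were put together with the calls in view, so their counts describe the called genes and test nothing.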
